A study of Homo sapiens with 10 samples.

Results

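Glutamine-recovered cells still differed from cells given arsenite alone in 4147 of the 12994 genes tested. The comparison took 6 of the 10 libraries of the study, the 3 of EBSS+VBL+Gln+Ars cells against the 3 of Ars cells, and left out genes whose mean over those 6 libraries was under 10 normalized counts. All libraries came from U2OS, a human osteosarcoma line. Ars cells stayed in low glucose DMEM with serum and received arsenite for 50 min, an oxidative stress that makes cells assemble stress granules (SGs). Glutamine-recovered cells (EBSS+VBL+Gln+Ars) spent 18 h in EBSS (a buffered salt solution with glucose that holds neither amino acids (AAs) nor serum) together with vinblastine (VBL, a drug that takes microtubules apart) and glutamine, and then received arsenite for 50 min. Starved cells (EBSS+VBL+Ars) had that treatment without glutamine, and their 3 libraries are given beside the comparison. Both groups compared carried arsenite. The lack of every AA but glutamine, the lack of serum and VBL came together in these cells, and their effects cannot be told apart. The series also holds 1 library of untreated cells, which has no replicate. The sources used here did not state whether a group's 3 libraries stem from separate cultures, and the p-values then measure spread between libraries that may be technical. A higher or lower value in these bulk libraries can come from more or fewer cells with a transcript or from its level per cell, which cannot be told apart.

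Cells that run short of AAs leave tRNAs uncharged, which activates the kinase GCN2. Arsenite acts on translation through another kinase of the same family, HRI, and both phosphorylate eIF2alpha, which slows translation while ATF4 protein is made and switches on genes of AA synthesis, AA transport and tRNA charging. Loss of AAs and growth factors also turns down mTORC1, a kinase that represses autophagy and lysosome genes, and withdraws the signals that carry cells from G1 into S phase. Tubulin mRNAs answer to microtubules themselves, since a rise in free tubulin dimers triggers decay of the mRNAs being translated into tubulin.

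Recovered reads numbered 5914439 to 7019842 per Ars library and 4452208 to 6323628 per glutamine-recovered library. They were worked out from the deposited gene values and are not the sequencing depth. The paper states a far greater yield of reads per sample, and the reason for the gap was not tested. RN7SL1, an RNA that helps direct new proteins to the ER, made up 14.1 to 19.9% of reads in Ars libraries and 7.88 to 16.7% in glutamine-recovered libraries, and it did not pass the test (log2 difference -0.44, adjusted p = 0.427). Of 10 osteoblast-lineage markers, 5 had a mean of at least 10 in each of these groups. IBSP, BGLAP and SP7 were at or near 0, and COL1A2 and SPP1 had means under 10. The summed level of the 10 markers was 15240 to 15970 in Ars libraries and 8455 to 8921 in glutamine-recovered libraries, mainly through COL1A1. None of 8 blood cell markers reached a mean of 10, with sums of 4.66 at most in these 6 libraries.

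Changes went in both directions in nearly equal number. By limma on log2(normalized count + 1), genes counted as higher or lower where the change reached 1.5-fold and the adjusted p was below 0.05, and log2 differences below are glutamine-recovered minus Ars on that scale, given ± SE. Of the 12994 genes, 2093 (16.1%) were higher and 2054 (15.8%) were lower in glutamine-recovered cells, in all 31.9%. The 2 groups did not overlap in 57.3% of all genes, 28.8% higher and 28.5% lower. Many list members named below were picked for a small p, which favors groups that do not overlap. Changes of at least 2-fold numbered 927 higher and 1107 lower, and at least 4-fold 144 higher and 211 lower. When libraries were rescaled to equal totals, the split was 2578 higher against 1653 lower, and the median of all genes moved from 0.00 to 0.11 on the log2 scale. Called genes differed in base composition: the median GC content was 47.6% for genes that rose, 54.9% for genes that fell and 50.4% for all genes. After the trend with GC content was removed from each library, 1854 were higher and 2193 lower. Starved cells differed from Ars cells in 5588 genes (43.0%), 20.8% higher and 22.2% lower, with the same 3 Ars libraries, and glutamine-recovered cells differed from starved cells in 2206 genes (17.0%), of which 1132 (8.71%) were higher and 1074 (8.27%) lower with glutamine. That last comparison depended on scaling: with libraries rescaled to equal totals the split was 2903 higher against 312 lower and the median of all genes moved from 0.02 to 0.30, while quantile normalization gave 913 against 886. Differences from starved cells are therefore given as deposited, and where equal totals end a call the value is given beside it.

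**Figure D1:**
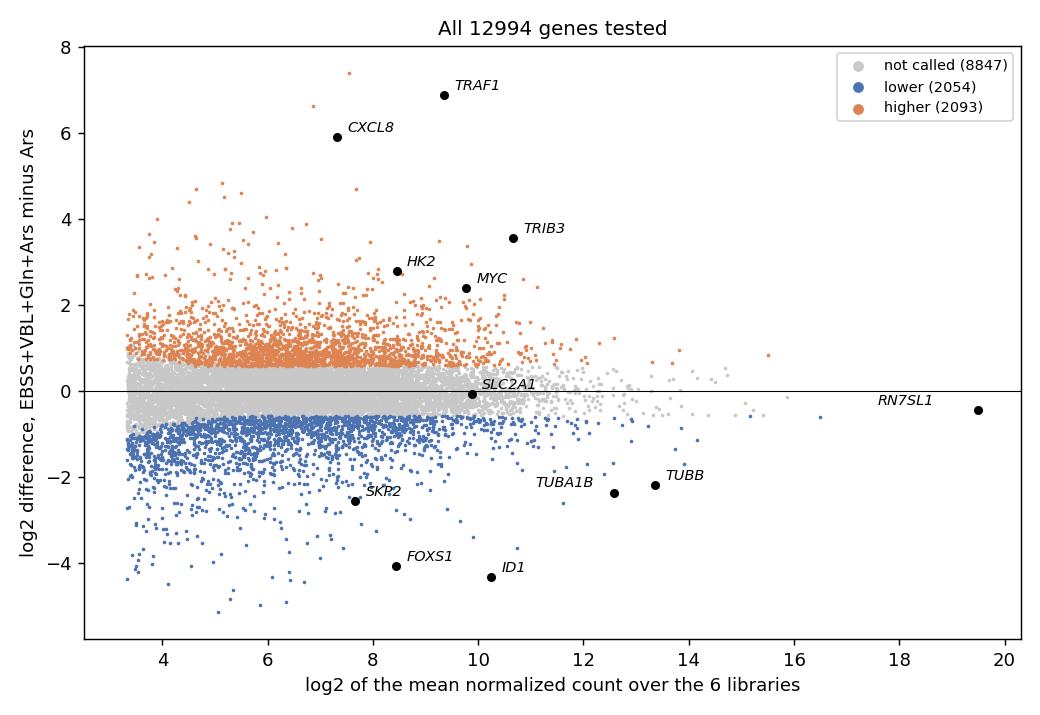
Log2 difference between glutamine-recovered and Ars cells (vertical axis) against the log2 mean normalized count over the 6 libraries (horizontal axis), 1 point per gene for 12994 genes. Orange points are the 2093 genes called higher, blue points the 2054 called lower, gray points those not called, and black points are named genes.

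The 10 largest rises among abundant genes with groups that did not overlap held 4 genes of NF-kB signalling and chemokines. They were CCL3, TRAF1, CCL4 and CXCL8. TRIB3 of the ATF4 response and CLDN1, a tight junction protein, were among them too. The other four (DUX4L18, DUX4L17, DUX4L26 and DUX4L19) are repeat copies of near-identical sequence, whose reads cannot be assigned to a single copy with certainty, and they are only named. CLDN1 had 13.5, 15.8 and 13.4 normalized counts in Ars libraries and 389.6, 389 and 403 in glutamine-recovered libraries (4.70 ± 0.14, adjusted p = 5.37e-15). The 10 largest falls were TUBB4A, ID1, FOXS1, ZNF467, EPHB3, H1-1, MAP1A, TRIB2, ID3 and SCX, with log2 differences from -4.44 to -3.38. FOXS1, a forkhead transcription factor, had normalized counts of 543, 695 and 724 in Ars cells, against 37.9, 41.4 and 33.6 with glutamine (-4.08 ± 0.20, adjusted p = 1.62e-11). MAP1A, a microtubule-associated protein, had 16.2, 16.3 and 15.8 normalized counts with glutamine, where Ars libraries held 205, 205 and 183 (-3.54 ± 0.19, adjusted p = 5.8e-11). CLDN1, FOXS1 and MAP1A were chosen among genes whose groups did not overlap, so their separation is not a further result. The untreated library held 82.7 for FOXS1 and 231 for MAP1A, so that Ars cells were above it for FOXS1 and near it for MAP1A.

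Of the 36 gene lists, those with the greatest share of members higher in glutamine-recovered cells were the ATF4 and NF-kB lists, and those with the greatest share lower were the tubulin, DNA replication and histone lists. Cytosolic ribosomal proteins had no member called in either direction. Beside the list counts against Ars below stand 16.1% higher and 15.8% lower over all genes. Beside those against starved cells stand 8.71% higher and 8.27% lower.

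**Figure D2:**
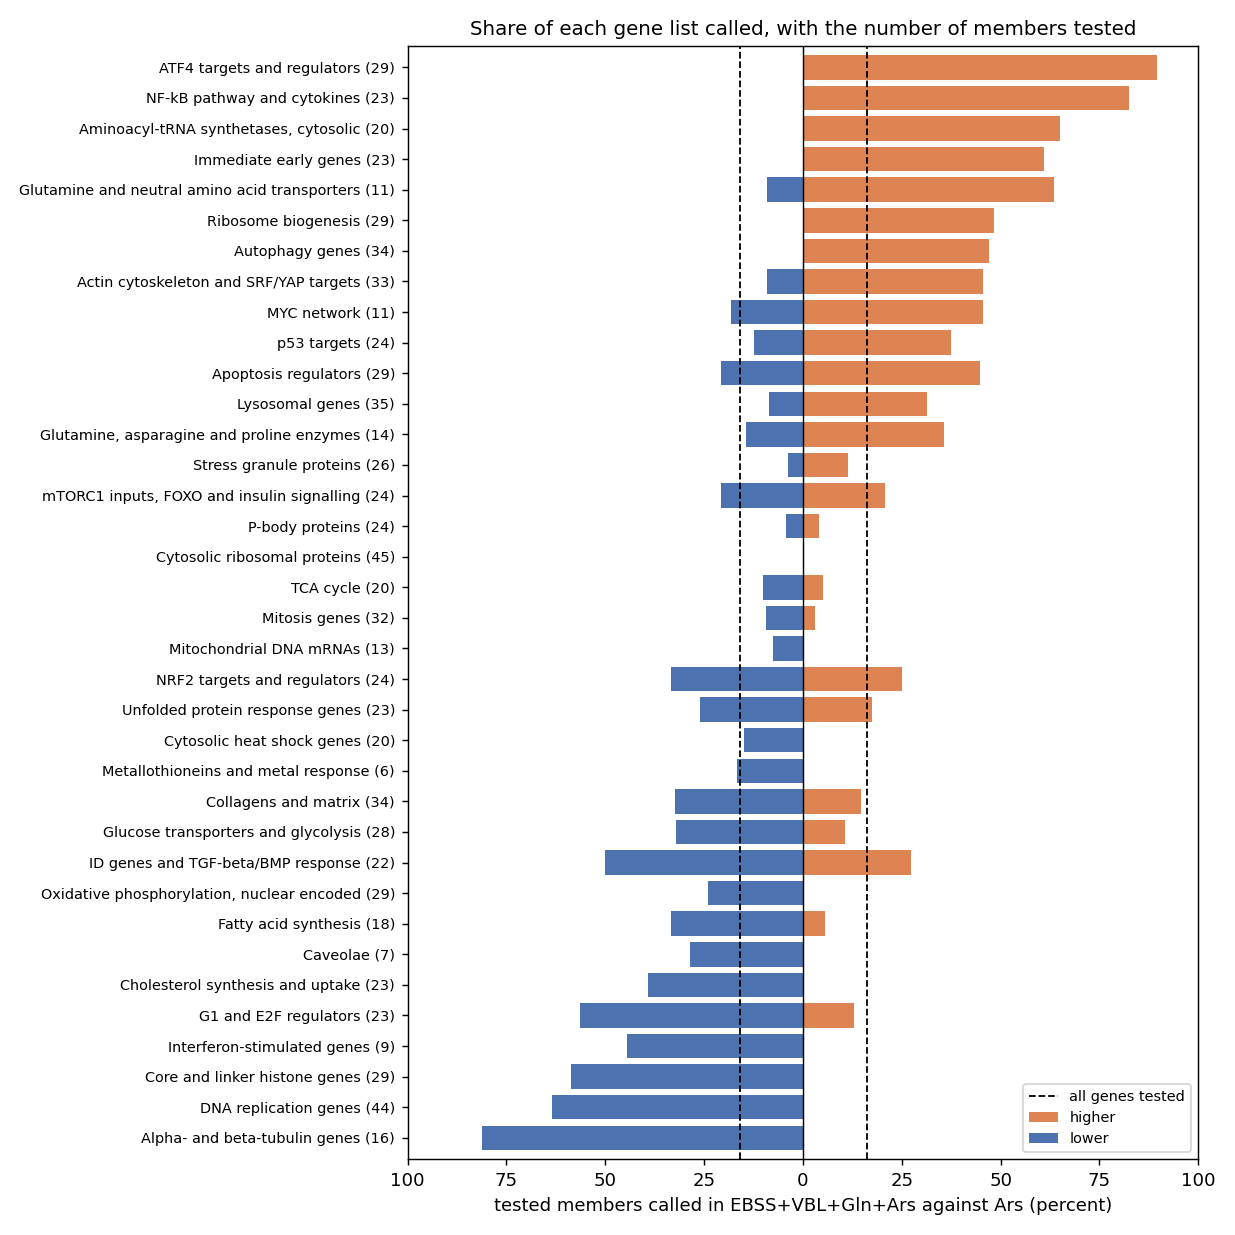
Percent of tested members of each of 36 gene lists called higher (orange, right) or lower (blue, left) in glutamine-recovered cells than in Ars cells, with the number tested in parentheses. Dashed lines mark the shares over all genes tested, 16.1% higher and 15.8% lower.

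ATF4 targets and regulators stayed high in glutamine-recovered cells. Of 29 members tested, 26 were higher and 0 lower (all genes: 16.1% higher), with a median log2 difference of 1.38 against 0.00 over all genes, and the other three (PHGDH, ATF5 and JDP2) were not called. TRIB3, a pseudokinase that feeds back on ATF4, had 234, 259.9 and 252 normalized counts in Ars libraries and 2585, 3514 and 2810.3 in glutamine-recovered libraries (3.56 ± 0.13, adjusted p = 1.38e-13). CTH, which makes cysteine from cystathionine, had normalized counts of 58.1, 35.4 and 40.2 in Ars cells, against 364, 383 and 389 with glutamine (3.09 ± 0.15, adjusted p = 1.66e-11). SESN2, a leucine sensor that restrains mTORC1, had 2986, 3714 and 2807 normalized counts with glutamine, where Ars libraries held 473, 581 and 489 (2.62 ± 0.13, adjusted p = 1.66e-11). In each of these genes the lowest glutamine-recovered library was above the highest Ars library by a wide margin (all genes: 28.8% above by any margin). PPP1R15A, the phosphatase subunit that reverses eIF2alpha phosphorylation, had 594, 858 and 641 normalized counts in Ars libraries and 3359, 4107 and 3691 in glutamine-recovered libraries (2.43 ± 0.13, adjusted p = 6.25e-11). MTHFD2, a mitochondrial folate enzyme, had normalized counts of 581, 465 and 566 in Ars cells, against 2413, 2231 and 2405 with glutamine (2.13 ± 0.11, adjusted p = 2.97e-11). DDIT3 (CHOP), a transcription factor of prolonged stress, had 297, 272 and 295 normalized counts with glutamine, where Ars libraries held 56.03, 66.1 and 52.8 (2.29 ± 0.13, adjusted p = 7.53e-11). The mRNA of ATF4 itself was higher by 1.14 ± 0.10, adjusted p = 2.28e-08, at 3747 ± 185 against 1695 ± 52.7 in Ars cells.

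Glutamine-recovered cells were lower than starved cells in 8 of these 29 members and higher in 0 (all genes: 8.27% lower), a count that became 3 lower and 4 higher with equal totals. TRIB3 was at 6151 ± 901 in starved cells (-1.05 against starved, adjusted p = 1.57e-05), SESN2 at 5241 ± 763 (-0.73 against starved, adjusted p = 0.000554) and DDIT3 at 575 ± 63.8 (-0.99 against starved, adjusted p = 2.97e-05). CTH and SARS1 did not pass that test (0.24 against starved, adjusted p = 0.26 and -0.02 against starved, adjusted p = 0.935). PHGDH, the first enzyme of serine synthesis, was at 1464 ± 113 in Ars cells, 1784 ± 116 in glutamine-recovered cells and 3111 ± 58.1 in starved cells, so that its level with glutamine lay nearer the Ars level. With equal totals the difference from starved cells was -0.44 for SESN2 and -0.52 for PHGDH, short of 1.5-fold.

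The promoters of 24 of the 30 ATF4 list genes were matched in the RefSeq table (GRCh38.p14), from 250 bases before to 50 after the transcription start. The composite element at which ATF4 pairs with C/EBP proteins was searched as TGATGCAA on both strands. It was present in 2 of the 24 (8.33%) and in 252 of 27305 promoters of the same length (0.92%). The 2 promoters are shown because they hold this motif within genes called higher, with the motif in capitals (in CHAC1 it lies on the other strand). CHAC1, which degrades glutathione, lies on chr15:40953221-40953520 of the plus strand, with the match starting 209 bases before the transcription start. NARS1, the asparaginyl-tRNA synthetase, lies on chr18:57621787-57622086 of the minus strand, with the match 14 bases after it.
CHAC1: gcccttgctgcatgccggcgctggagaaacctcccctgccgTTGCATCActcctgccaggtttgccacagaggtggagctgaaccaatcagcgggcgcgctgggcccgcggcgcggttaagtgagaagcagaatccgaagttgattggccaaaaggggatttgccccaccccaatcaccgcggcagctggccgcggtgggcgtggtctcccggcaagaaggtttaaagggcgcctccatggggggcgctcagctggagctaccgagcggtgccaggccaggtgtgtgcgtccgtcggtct
NARS1: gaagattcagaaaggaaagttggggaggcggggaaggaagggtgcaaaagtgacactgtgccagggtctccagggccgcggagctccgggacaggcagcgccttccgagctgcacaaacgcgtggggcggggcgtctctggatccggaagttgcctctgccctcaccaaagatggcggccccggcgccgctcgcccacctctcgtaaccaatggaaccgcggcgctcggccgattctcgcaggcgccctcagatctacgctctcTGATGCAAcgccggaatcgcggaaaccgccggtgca
CHAC1 had 367, 417 and 366 normalized counts in Ars libraries and 1591, 2028 and 1529.5 in glutamine-recovered libraries (2.15 ± 0.13, adjusted p = 1.51e-10). NARS1 had normalized counts of 238, 201 and 242 in Ars cells, against 569, 471 and 549 with glutamine (1.22 ± 0.13, adjusted p = 5.55e-07). A match is a description of these letters and not evidence of binding, and the regulatory elements of other members may lie outside this window.

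Aminoacyl-tRNA synthetases of the cytosol, which attach AAs to tRNAs, followed the same direction. Of 20 tested, 13 were higher and 0 lower, with a median log2 difference of 0.74. SARS1, for serine, had 2249, 1992 and 2192 normalized counts with glutamine, where Ars libraries held 559.7, 534 and 574 (1.94 ± 0.11, adjusted p = 1.07e-10). CARS1, for cysteine, had 346, 398 and 383 normalized counts in Ars libraries and 1029, 994 and 1036 in glutamine-recovered libraries (1.44 ± 0.10, adjusted p = 1.21e-09). Both sets of libraries were tight and did not overlap (all genes: 28.8% higher without overlap). GARS1, YARS1 and WARS1 also rose, with log2 differences of 1.34, 1.14 and 1.26. QARS1, which charges tRNA with glutamine, was at 1466 ± 83.7 against 1568 ± 26.3 in Ars cells and was not called. No member was lower than in starved cells and 2 of 20 were higher, LARS1 among them (all genes: 8.71% higher). The count higher was 6 with equal totals and 3 with quantile normalization. After the GC trend was removed LARS1 was at 0.34 against starved cells, and 0 members were higher.

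Transporters of glutamine and other neutral AAs were higher in 7 of 11 members tested and lower in 1, with a median of 0.73. SLC1A5 (ASCT2), the main glutamine importer of many cancer lines, had normalized counts of 2799, 3377 and 2884 in Ars cells, against 4646, 5312 and 4856 with glutamine (0.71 ± 0.12, adjusted p = 5.38e-05). SLC38A1 (SNAT1), a sodium-coupled glutamine transporter, had 282, 283 and 317 normalized counts with glutamine, where Ars libraries held 77.6, 80.1 and 69.6 (1.94 ± 0.12, adjusted p = 2.96e-10). SLC7A5 (LAT1), which exchanges glutamine for leucine and other large neutral AAs, had 3429.6, 4145 and 3474 normalized counts in Ars libraries and 7683, 9721 and 8401 in glutamine-recovered libraries (1.22 ± 0.13, adjusted p = 2.68e-07), and its partner SLC3A2 rose by 0.73. The starved libraries were higher again for all of SLC1A5, SLC38A1 and SLC7A5, at 7904 ± 753, 451 ± 35.7 and 15356 ± 1433 (-0.68 against starved, adjusted p = 0.000351, -0.61 against starved, adjusted p = 0.00116 and -0.84 against starved, adjusted p = 0.000124 in that order). As deposited, glutamine-recovered cells sat between Ars and starved cells in these transporters, but with equal totals the differences from starved cells were -0.39, -0.33 and -0.55 and fell short of 1.5-fold. SLC38A2 (SNAT2), at 1087 ± 161 against 789 ± 40.01, was not called. The member that fell was SLC7A8 (LAT2), with normalized counts of 16.9, 10.2 and 20.1 in Ars cells, against 4.33, 3.27 and 5.48 with glutamine (-1.62 ± 0.43, adjusted p = 0.00476). SLC7A8 passed the minimum mean of 10 only through the Ars libraries and could only be called lower.

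Among enzymes that use or make glutamine, asparagine and proline, 5 of 14 were higher and 2 lower, with a median of 0.51. ASNS, which makes asparagine with glutamine as nitrogen donor, had 115, 132 and 110.3 normalized counts with glutamine, where Ars libraries held 20.3, 31.7 and 25.2 (2.19 ± 0.18, adjusted p = 1.28e-08). GOT1 and GPT2, transaminases that work with glutamate, rose by 1.69 and 1.27. GLUL (glutamine synthetase) fell, with 126, 96.9 and 88.9 normalized counts in Ars libraries and 44.4, 41.4 and 41.8 in glutamine-recovered libraries (-1.26 ± 0.18, adjusted p = 1.19e-05). The count of members that fell was 1 without Ars replicate 1 or without EBSS+VBL+Gln+Ars replicate 2.

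NF-kB genes and cytokines carried the largest changes of any list. Of 23 members tested, 19 were higher and 0 lower (all genes: 16.1% higher), with a median log2 difference of 2.23. The other 8 of the 31 listed were under the minimum mean of 10, and CXCL1, CXCL2 and IL1B were at 0. Members with an Ars mean under 10, such as CCL3, CXCL8, IL24 and TNF, passed only through the glutamine-recovered libraries. They could not be called lower, so this filter favored rises in the count and the median. CCL3, a chemokine (chr17:36088256-36090169), had normalized counts of 2.03, 0.932 and 0.838 in Ars cells, against 368, 396 and 356 with glutamine. Those Ars values stood for 1 to 3 reads a library, and the ratio of summed reads was 278, with an exact 95% interval of 119 to 857 for counting error alone (log2 difference 7.41 ± 0.19, adjusted p = 1.02e-15). CCL3 and CCL4 have near-identical copies in the genome, so their reads may be shared with those. TRAF1, an adaptor of TNF receptors, had 1219, 1434 and 1223 normalized counts with glutamine, where Ars libraries held 9.45, 11.2 and 9.22 (6.88 ± 0.14, adjusted p = 2.99e-17). CXCL8 (interleukin 8) had 6.08, 1.86 and 5.87 normalized counts in Ars libraries and 303, 274 and 365 in glutamine-recovered libraries (5.92 ± 0.27, adjusted p = 5.6e-12). These Ars libraries were near 0 while all 3 glutamine-recovered libraries were far above them. RELB, a subunit of the non-canonical pathway, had normalized counts of 144, 163 and 154 in Ars cells, against 1487, 1932 and 1431 with glutamine (3.37 ± 0.12, adjusted p = 9.58e-14). NFKBIA, the inhibitor that NF-kB itself induces, had 410.2, 395 and 388 normalized counts with glutamine, where Ars libraries held 190.4, 189 and 169 (1.12 ± 0.11, adjusted p = 1.32e-07). RELA, the canonical subunit, was at 1372 ± 151 against 1045 ± 59.04 and was not called.

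Against starved cells the NF-kB members went both ways, 8 higher and 2 lower (13 and 2 with equal totals). CXCL8 was at 122 ± 19.8 in starved cells (1.36 against starved, adjusted p = 0.00121) and TRAF1 at 777 ± 134 (0.74 against starved, adjusted p = 0.000751), both below the level with glutamine. TNF was at 3.34 ± 2.31 in Ars, 23.6 ± 3.49 in glutamine-recovered and 8.67 ± 3.63 in starved cells (1.42 against starved, adjusted p = 0.0212, and 1.17 with quantile normalization, adjusted p = 0.0562). CCL3 was at 693 ± 88.9 in starved cells (-0.88 against starved, adjusted p = 0.00193), and IL24, a cytokine of the IL-10 family, at 302 ± 39.9 against 69.1 ± 7.45 with glutamine (-2.11 against starved, adjusted p = 0.000116), so that these 2 were lower with glutamine.

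**Figure D3:**
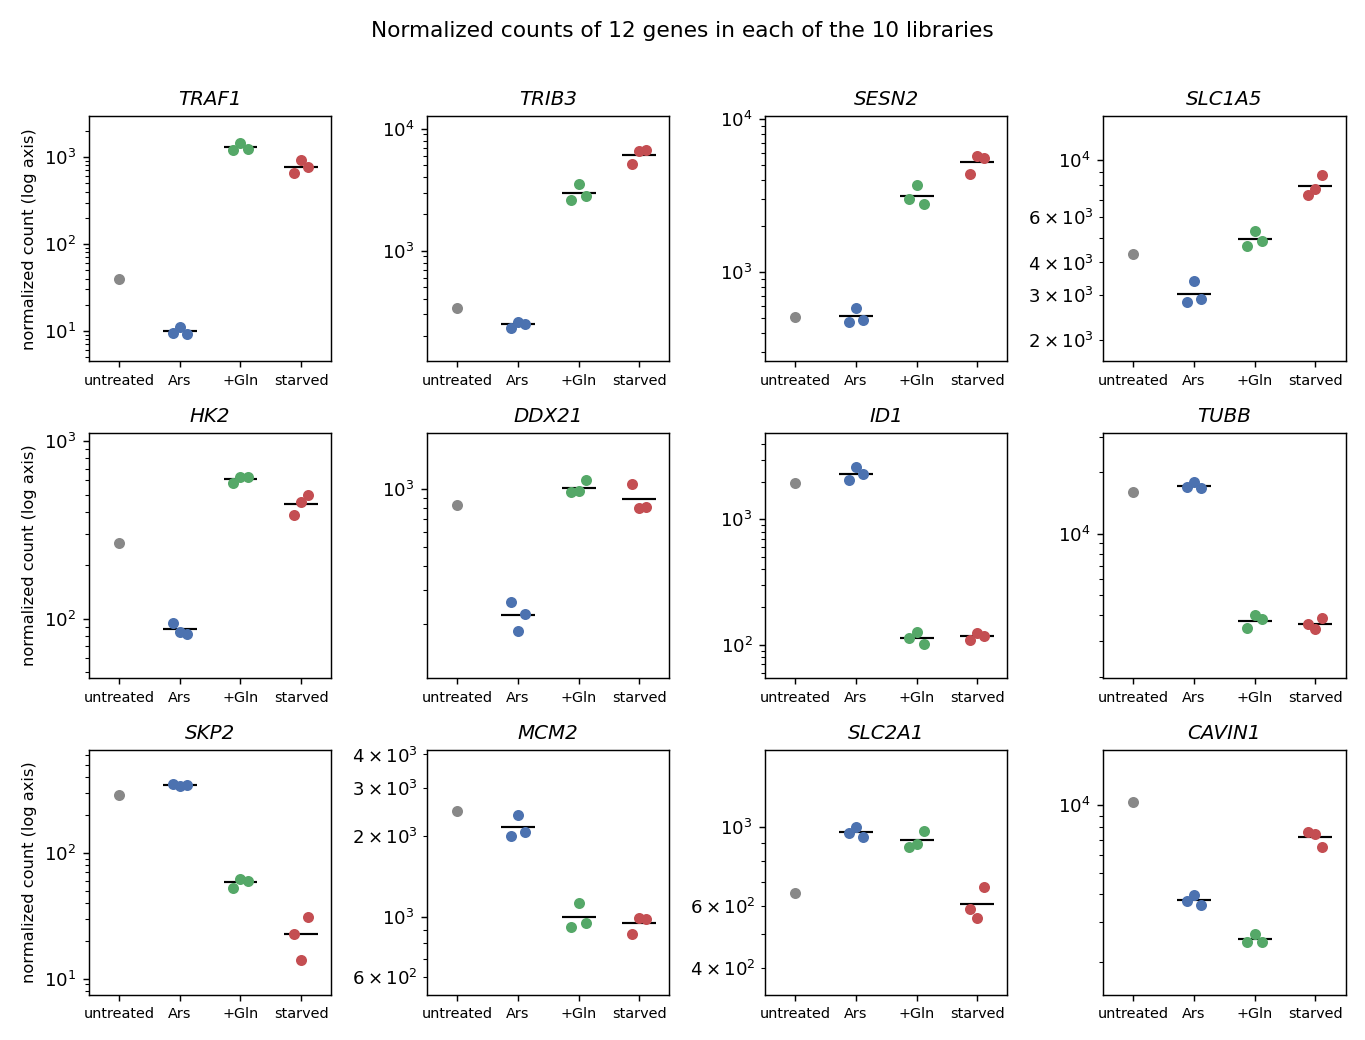
Normalized counts (log axis) of 12 genes in each of the 10 libraries, with a point per library and a line at the mean of 3 libraries. Columns are untreated cells (gray), Ars cells (blue), glutamine-recovered cells (+Gln, green) and starved cells (red). TRAF1, TRIB3 and SESN2 were above Ars in both pretreated groups, ID1 and TUBB below, and SLC2A1 was near its Ars level with glutamine.

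Immediate early genes, the first to respond to growth factor or stress signals, were higher in 14 of 23 members and lower in 0, with a median of 0.89. MYC, which drives growth and glutamine use genes, had 277, 279 and 278 normalized counts in Ars libraries and 1408, 1494 and 1492 in glutamine-recovered libraries (2.39 ± 0.09, adjusted p = 6.89e-13). EGR1 had normalized counts of 1146, 1467 and 1217 in Ars cells, against 3341, 3912 and 3372 with glutamine (1.48 ± 0.12, adjusted p = 1.3e-08). FOSL1 had 806, 978 and 919 normalized counts with glutamine, where Ars libraries held 284, 301 and 293 (1.61 ± 0.11, adjusted p = 7.98e-10). The 2 groups did not overlap for these genes (all genes: 28.8% higher without overlap), and the spread within each was small for MYC. Against starved cells 9 of 23 were lower and 0 higher (4 lower with equal totals). FOS was at 1640 ± 298 in Ars, 1628 ± 202 in glutamine-recovered and 2824 ± 632 in starved cells (-0.77 against starved, adjusted p = 0.00123, and -0.49 with equal totals, short of 1.5-fold), and JUN at 1636 ± 108, 1309 ± 108 and 2711 ± 413 (-1.04 against starved, adjusted p = 7.21e-06). MYC was at 2083 ± 59.4 in starved cells (-0.51 against starved, adjusted p = 0.000687), a difference below 1.5-fold. Of 11 genes of the MYC network, 5 were higher and 2 lower. MXD1, a partner of MAX that opposes MYC, rose by 2.70 and MAX by 0.98, while MXD3 fell by 1.49.

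Ribosome biogenesis genes were higher in 14 of 29 and lower in 0, with a median of 0.56. DDX21, a helicase of rRNA processing, had 259.9, 183 and 225 normalized counts in Ars libraries and 959, 971 and 1116 in glutamine-recovered libraries (2.20 ± 0.14, adjusted p = 2.62e-10). RRP12 had normalized counts of 527, 673 and 592 in Ars cells, against 1519, 1865 and 1567 with glutamine (1.47 ± 0.11, adjusted p = 5.94e-09). The untreated library held 826 and 1697, nearer to the glutamine-recovered libraries than to the Ars libraries. Cytosolic ribosomal proteins had 0 of 45 called in either direction, with a median of 0.05 and log2 differences from -0.30 (RPS19) to 0.51 (RPL3, which was called higher with equal totals at 0.62 and with quantile normalization at 0.70).

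Autophagy genes were higher in 16 of 34 members and lower in 0, with a median of 0.55. MAP1LC3B, which coats the growing autophagosome, had 1042, 839 and 986 normalized counts with glutamine, where Ars libraries held 209, 228 and 215 (2.13 ± 0.13, adjusted p = 2.08e-10). SQSTM1 (p62), a cargo receptor, had 1842, 2153 and 1878 normalized counts in Ars libraries and 4019, 4349 and 4067 in glutamine-recovered libraries (1.08 ± 0.10, adjusted p = 1.02e-07). RB1CC1 and GABARAPL2 rose by 1.27 and 1.01. Starved cells were at 6379 ± 330 for SQSTM1 (-0.62 against starved, adjusted p = 0.000324, and -0.34 with equal totals, short of 1.5-fold). ATG2A, a lipid transfer protein, was at 519 ± 117 in Ars, 999.7 ± 153 in glutamine-recovered and 2845 ± 428 in starved cells (-1.51 against starved, adjusted p = 3.55e-06).

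Lysosomal genes were split, with 11 of 35 higher and 3 lower and a median of 0.29. CLCN7, a lysosomal chloride-proton exchanger, had normalized counts of 501, 707 and 638 in Ars cells, against 1280.3, 1556 and 1253.3 with glutamine (1.15 ± 0.13, adjusted p = 1.18e-06). NPC1, the lysosomal cholesterol exporter, had 303, 325 and 302 normalized counts with glutamine, where Ars libraries held 105, 116 and 81.3 (1.62 ± 0.14, adjusted p = 1.93e-08). CTSL (cathepsin L) fell, with 263, 218 and 254 normalized counts in Ars libraries and 103, 105 and 101 in glutamine-recovered libraries (-1.24 ± 0.15, adjusted p = 1.33e-06). TFEB, a transcription factor of lysosome genes, and GLA were the other members that fell. TFEB was at 129 ± 24.9 in Ars, 76.3 ± 14.3 in glutamine-recovered and 177 ± 15.3 in starved cells (-1.22 against starved, adjusted p = 5.54e-05), lowest with glutamine. Against starved cells 10 lysosomal members were lower and 2 higher (5 and 3 with equal totals), CLCN7 among those lower (-1.24 against starved, adjusted p = 5.86e-06).

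Among inputs to mTORC1, FOXO factors and insulin signalling, 5 of 24 were higher and 5 lower. That was 20.8% each way, not far from the 16.1% higher and 15.8% lower of all genes. DDIT4 (REDD1), an inhibitor of mTORC1, had normalized counts of 672, 770.4 and 564 in Ars cells, against 1668, 1942 and 1588 with glutamine (1.38 ± 0.12, adjusted p = 3.62e-08). FOXO1, FOXO3, TXNIP and SESN2 rose as well. CASTOR2, of the arginine sensor family, had 121, 119.7 and 122 normalized counts with glutamine, where Ars libraries held 425, 589 and 528 (-2.07 ± 0.14, adjusted p = 1.35e-09). SESN3, a relative of SESN2, fell by 2.73, and PIK3R3, FOXO4 and CASTOR1 fell too. FOXO1 was not called without Ars replicate 3 (0.66) or EBSS+VBL+Gln+Ars replicate 1 (0.75) or 2 (0.61), and CASTOR1 was not called without Ars replicate 2 (-0.69) or 3 (-0.80) or EBSS+VBL+Gln+Ars replicate 2 (-0.84) or 3 (-0.65). FOXO1 was not called with DESeq2 (0.82) either, and CASTOR1 not with equal totals (-0.70). CASTOR2 was at 199.6 ± 36.7 in starved cells and so lowest with glutamine (-0.70 against starved, adjusted p = 0.00158, and -0.42 with equal totals, short of 1.5-fold).

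Of 28 glucose transporter and glycolysis genes, 9 were lower and 3 higher, with a median of -0.40, but with equal totals 6 were lower and 5 higher. SLC2A1 (GLUT1, chr1:42925353-42958893), the basal glucose transporter, had 959, 999.6 and 937 normalized counts in Ars libraries and 879, 897 and 974 in glutamine-recovered libraries, and these groups overlapped (-0.08 ± 0.10, adjusted p = 0.581, 95% interval -0.29 to 0.14). Starved cells were at 607 ± 64.03, and glutamine-recovered cells were above them (0.60 against starved, adjusted p = 0.000422). HK2, a hexokinase that traps glucose in the cell, had normalized counts of 94.5, 84.8 and 82.2 in Ars cells, against 582, 627 and 624 with glutamine (2.80 ± 0.12, adjusted p = 2.68e-12). SLC2A3 (GLUT3) and PDK1, which holds pyruvate back from mitochondria, were the other members that rose, although SLC2A3 was not called without EBSS+VBL+Gln+Ars replicate 3 (0.56). PDK1 was at 35.2 ± 6.64 in Ars, 77.2 ± 12.9 in glutamine-recovered and 37.4 ± 7.58 in starved cells (1.03 against starved, adjusted p = 0.00169). PFKFB4 had 36.8, 20.7 and 28.1 normalized counts with glutamine, where Ars libraries held 101, 123 and 103 (-1.93 ± 0.22, adjusted p = 1.14e-06). LDHA, which makes lactate, had 2313, 2237 and 2489.5 normalized counts in Ars libraries and 1486, 1206 and 1453 in glutamine-recovered libraries (-0.77 ± 0.12, adjusted p = 3.52e-05). GPI fell by 0.66 and fell short of 1.5-fold after GC content was removed (-0.58).

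As deposited, 24.1% of nuclear oxidative phosphorylation genes were lower, against 15.8% of all genes. The shares lower were smaller for TCA cycle genes (10%) and mRNAs of mitochondrial DNA (7.69%). Of 20 genes on the TCA cycle list, which also counts the cytosolic IDH1, 2 were lower (IDH1 and OGDH) and 1 higher (SUCLG2), with a median of -0.12. IDH1, the cytosolic isocitrate dehydrogenase, had normalized counts of 171, 166 and 198 in Ars cells, against 71.4, 54.4 and 40.4 with glutamine (-1.70 ± 0.23, adjusted p = 5.61e-06). IDH2, the mitochondrial enzyme, had 141, 142 and 151 normalized counts with glutamine, where Ars libraries held 221, 202 and 174 and was not called (-0.45 ± 0.14, adjusted p = 0.0161), while starved cells were at 65.1 ± 7.67 (1.15 against starved, adjusted p = 2.39e-05). SUCLG2 had 99.9, 76.4 and 97.3 normalized counts in Ars libraries and 143, 119 and 159.7 in glutamine-recovered libraries (0.62 ± 0.18, adjusted p = 0.00862) and was not called without Ars replicate 2 (0.50) or EBSS+VBL+Gln+Ars replicate 3 (0.52), with quantile normalization (0.584) or after the GC trend was removed (0.45), which left 0 higher. Nuclear genes of oxidative phosphorylation were lower in 7 of 29 and higher in 0, with a median of -0.34, among them NDUFS3 (-0.81), SDHA (-0.77) and ATP5F1A (-0.71). With equal totals the count lower was 4. Of 13 mRNAs of mitochondrial DNA, MT-ND6 was lower (-0.60 ± 0.18, adjusted p = 0.0107) and the rest were not called. MT-ND6 lost its call without Ars replicate 1 (-0.48), Ars replicate 3 (-0.58) or EBSS+VBL+Gln+Ars replicate 2 (-0.51), or with equal totals (-0.4991), and 2 of these mRNAs were lower after the GC trend was removed.

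Lipid synthesis genes fell more often than they rose. In cholesterol synthesis and uptake 9 of 23 fell and 0 rose, with a median of -0.51. DHCR7, a reductase of the last steps to cholesterol, had normalized counts of 1069, 1151 and 1085 in Ars cells, against 419.9, 435 and 439.9 with glutamine (-1.35 ± 0.13, adjusted p = 6.28e-08). EBP and MVK fell by 1.75 and 1.13. In fatty acid synthesis 6 of 18 fell and 1 rose. FADS2, a desaturase of polyunsaturated fatty acids, had 793, 789 and 792 normalized counts with glutamine, where Ars libraries held 2548, 3169 and 2806 (-1.84 ± 0.10, adjusted p = 7.53e-11). SCD, which makes monounsaturated fatty acids, had 1336, 1305 and 1244 normalized counts in Ars libraries and 527, 430 and 473 in glutamine-recovered libraries (-1.44 ± 0.13, adjusted p = 3.22e-08). ACSL4, the member that rose, had normalized counts of 42.5, 33.5 and 41.1 in Ars cells, against 127, 127 and 164 with glutamine (1.81 ± 0.18, adjusted p = 2.17e-07). All of these groups were separate, as were those of 57.3% of all genes in either direction.

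Tubulin genes made up the list with the greatest share of members lower. Of 13 alpha- and beta-tubulin genes tested 12 were lower and 0 higher, and with gamma-tubulin genes and TTC5 the list had 13 of 16 lower (all genes: 15.8%), with a median of -1.4996. TUBB (chr6:30717435-30725538), a main beta-tubulin, had 3472, 3997 and 3819.6 normalized counts with glutamine, where Ars libraries held 16895, 17979 and 16821 (-2.20 ± 0.11, adjusted p = 1.66e-11). TUBA1B, a main alpha-tubulin, had 10588, 9947 and 10254 normalized counts in Ars libraries and 1919, 2056 and 2003 in glutamine-recovered libraries (-2.36 ± 0.10, adjusted p = 1.7e-12). TUBA4A had normalized counts of 481, 506 and 471 in Ars cells, against 44.4, 52.3 and 52.8 with glutamine (-3.26 ± 0.14, adjusted p = 1.67e-12). TUBB4A had 12.99, 4.35 and 8.91 normalized counts with glutamine, where Ars libraries held 182, 235 and 175 (-4.44 ± 0.42, adjusted p = 6.71e-08). With a mean under 10 there, TUBB4A could only be called lower. The untreated library held 15989 for TUBB and 7349 for TUBA1B, on the side of the Ars libraries. Starved cells were at 3631 ± 228 for TUBB (0.05 against starved, adjusted p = 0.761) and 1665 ± 95.02 for TUBA1B (0.26 against starved, adjusted p = 0.0563). TTC5, the factor that binds nascent tubulin and triggers decay of its mRNA, was at 107 ± 9.24 in Ars, 90.8 ± 10.4 in glutamine-recovered and 36.1 ± 6.69 in starved cells (1.32 against starved, adjusted p = 3.96e-05). Tubulin genes are close paralogs, so some reads may be shared between them, and TUBA3C in particular has a near-identical copy.

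DNA replication genes were lower in 28 of 44 members and higher in 0, with a median of -0.69 against 0.00 over all genes. MCM2, a subunit of the replicative helicase, had 2006, 2389 and 2074 normalized counts in Ars libraries and 923, 1129.9 and 949.8 in glutamine-recovered libraries (-1.11 ± 0.11, adjusted p = 1.61e-07). ORC1, of the origin recognition complex, had normalized counts of 151, 174 and 129 in Ars cells, against 37.9, 37.01 and 41.8 with glutamine (-1.93 ± 0.18, adjusted p = 7.17e-08). TK1, thymidine kinase, had 925, 1096 and 859 normalized counts with glutamine, where Ars libraries held 2067, 2135 and 2118 (-1.14 ± 0.11, adjusted p = 6.69e-08). PCNA, the sliding clamp, had 619.8, 493 and 581 normalized counts in Ars libraries and 240.3, 195 and 217 in glutamine-recovered libraries (-1.37 ± 0.17, adjusted p = 2.15e-06). Each of these had its 3 glutamine-recovered libraries below the Ars libraries, as did 28.5% of all genes. Against starved cells 14 of 44 were higher and 0 lower (all genes: 8.71% higher), and 28 were higher with equal totals. MCM6 was at 254 ± 2.94 in Ars, 138 ± 21.3 in glutamine-recovered and 60.1 ± 1.36 in starved cells (1.18 against starved, adjusted p = 1.32e-05), and CDC6, which loads the helicase, at 262 ± 37.2, 162 ± 11.7 and 71.6 ± 16.8 (1.19 against starved, adjusted p = 5.78e-05). CDC6 was called lower than in Ars cells, but not with equal totals (-0.58). PRIM1, the primase subunit, at 95.1 ± 17.5, 63.1 ± 5.90 and 22.4 ± 8.99, was not called against Ars (1.51 against starved, adjusted p = 0.000159). It was called against Ars without Ars replicate 2 (-0.70), with DESeq2 (-0.60), edgeR (-0.59) or quantile normalization (-0.64), and after the GC trend was removed (-0.80). MCM2, ORC1 and TK1 did not pass the test against starved cells as deposited (0.07 against starved, adjusted p = 0.653, 0.41 against starved, adjusted p = 0.0951 and -0.19 against starved, adjusted p = 0.202). With equal totals ORC1 was called higher than in starved cells (0.69, adjusted p = 0.0134).

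Promoters of the replication genes were searched for E2F sites, written as TTTGGCGC or TTTCCCGC, on both strands. The RefSeq table (GRCh38.p14) held 37 of the 44 genes, of which 18 (48.7%) had a site, against 631 of 27305 promoters (2.31%). These motifs and this list were paired because replication genes are known E2F targets. The 2 promoters of genes that fell with the smallest p and a match are shown, with the site in capitals. MCM3 lies on chr6:52284693-52284992 of the minus strand, with its site starting 174 bases before the transcription start, and LIG1, the ligase that joins Okazaki fragments, on chr19:48170295-48170594 of the minus strand, with its site 114 bases before.
MCM3: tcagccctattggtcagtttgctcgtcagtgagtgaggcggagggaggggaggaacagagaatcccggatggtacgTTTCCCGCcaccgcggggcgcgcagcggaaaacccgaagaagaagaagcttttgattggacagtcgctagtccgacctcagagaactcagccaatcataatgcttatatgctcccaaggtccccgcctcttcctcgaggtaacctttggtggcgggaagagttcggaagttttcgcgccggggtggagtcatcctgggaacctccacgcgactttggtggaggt
LIG1: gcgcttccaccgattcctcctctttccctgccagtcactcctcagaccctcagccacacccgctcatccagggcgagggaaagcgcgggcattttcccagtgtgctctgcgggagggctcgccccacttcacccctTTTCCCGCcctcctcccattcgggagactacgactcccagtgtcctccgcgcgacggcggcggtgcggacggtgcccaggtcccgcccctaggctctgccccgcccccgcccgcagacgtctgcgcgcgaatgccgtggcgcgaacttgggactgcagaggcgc
MCM3 had normalized counts of 961, 1063 and 892 in Ars cells, against 474, 501 and 469 with glutamine (-1.01 ± 0.10, adjusted p = 2.31e-07). LIG1 had 360.4, 372 and 325 normalized counts with glutamine, where Ars libraries held 708, 751 and 659.9 (-1.001 ± 0.11, adjusted p = 3.28e-07). The match describes these letters and is not evidence that E2F proteins were bound.

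G1 and E2F regulators were lower in 13 of 23 and higher in 3, with a median of -0.74. SKP2, a ubiquitin ligase subunit that removes the inhibitor p27, had 352, 342 and 345 normalized counts in Ars libraries and 53.03, 62.05 and 59.6 in glutamine-recovered libraries (-2.55 ± 0.21, adjusted p = 1.24e-08). CCND1 (cyclin D1) had normalized counts of 670.4, 661 and 629 in Ars cells, against 301, 251 and 317 with glutamine (-1.18 ± 0.11, adjusted p = 8.98e-08). E2F2 and CCND3 fell by 1.90 and 1.80. The members that rose were CDKN1A, CDK6 and CCND2. SKP2 was at 22.5 ± 8.48 in starved cells (1.40 against starved, adjusted p = 0.000118), and CDKN1A (p21), at 2385 ± 173 against 1373 ± 77.8 in Ars cells, was at 4056 ± 527 in starved cells (-0.76 against starved, adjusted p = 8.87e-05, and -0.47 with equal totals, short of 1.5-fold).

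Mitosis genes were called lower in 3 of 32 and higher in 1, with a median of -0.28. The shares were 9.38% lower and 3.12% higher, below the 15.8% and 16.1% of all genes. After the GC trend was removed 5 were lower and 0 higher. KIF20A, a kinesin of cytokinesis, had 166, 160 and 159 normalized counts with glutamine, where Ars libraries held 495, 481 and 459 (-1.56 ± 0.11, adjusted p = 2.47e-09). BIRC5 and AURKA were the others that fell, and AURKA was not called without Ars replicate 1 (-0.55) or EBSS+VBL+Gln+Ars replicate 2 (-0.56) or 3 (-0.58), or with equal totals (-0.501). CENPF, the member that rose, had 197, 158 and 229 normalized counts in Ars libraries and 307, 256 and 369 in glutamine-recovered libraries (0.67 ± 0.17, adjusted p = 0.00326), a call lost without Ars replicate 2 (0.53), without EBSS+VBL+Gln+Ars replicate 3 (0.54) or after the GC trend was removed (0.44). Against starved cells 10 of 32 were higher and 0 lower (4 higher after the GC trend was removed, 18 with equal totals), among them NDC80, of the kinetochore, at 277 ± 30.9 in Ars, 363 ± 35.7 in glutamine-recovered and 178 ± 41.8 in starved cells (1.05 against starved, adjusted p = 7.25e-05). Core and linker histone genes, most of which are expressed in S phase, were lower in 17 of 29 and higher in 0, with a median of -0.76. H1-1 had normalized counts of 2751, 3263 and 3469 in Ars cells, against 249, 244 and 255 with glutamine (-3.65 ± 0.12, adjusted p = 7.22e-14). H2BC14 had 858, 1017 and 772 normalized counts with glutamine, where Ars libraries held 4423, 6051 and 5682 (-2.61 ± 0.17, adjusted p = 3.85e-10). H1-10, a linker histone that does not depend on replication, had 2649, 3339 and 2939 normalized counts in Ars libraries and 1237, 1386 and 1068 in glutamine-recovered libraries (-1.28 ± 0.12, adjusted p = 4.64e-08), and starved cells were at 2309 ± 118 (-0.92 against starved, adjusted p = 2.44e-05), so that it was lower with glutamine. Histone genes are a multigene family, and reads may be shared between near-identical members.

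**Figure D4:**
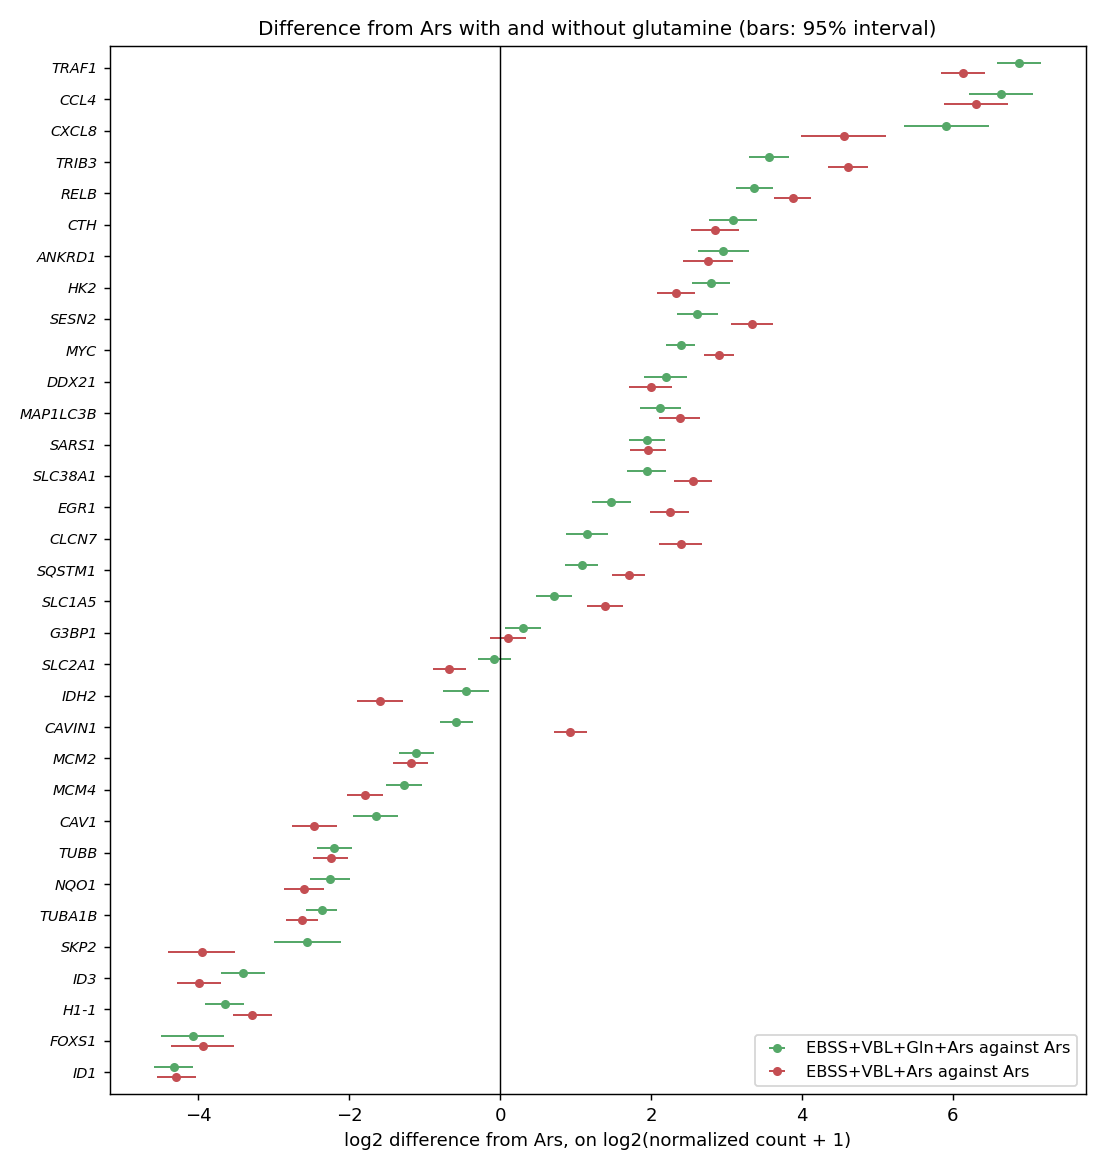
Log2 difference from Ars (horizontal axis, on log2(normalized count + 1)) of 33 named genes in glutamine-recovered cells (green) and in starved cells (red), with bars for the 95% interval. Both differences use the same 3 Ars libraries. Green and red points lie close for SARS1, TUBB, MCM2 and ID1, and apart for CAVIN1, IDH2, SKP2 and CLCN7.

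ID genes and TGF-beta/BMP response genes went both ways, 11 of 22 lower and 6 higher, with a median of -0.59. ID1 (chr20:31605283-31606515), an inhibitor of differentiation factors and a direct BMP target, had normalized counts of 2046, 2604 and 2292 in Ars cells, against 114, 127 and 102 with glutamine (-4.33 ± 0.12, adjusted p = 5.37e-15). ID3 had 162, 165 and 163 normalized counts with glutamine, where Ars libraries held 1594, 1926 and 1716 (-3.40 ± 0.14, adjusted p = 1.37e-12). SMAD6, a feedback inhibitor of BMP signalling, had 152, 171 and 158 normalized counts in Ars libraries and 5.41, 11.97 and 6.85 in glutamine-recovered libraries (-4.21 ± 0.31, adjusted p = 3.05e-09). With a mean under 10 in the latter, SMAD6 could only be called lower. BMP4, a ligand, had normalized counts of 406, 407 and 348 in Ars cells, against 120.1, 138 and 90.5 with glutamine (-1.74 ± 0.16, adjusted p = 5.37e-08). The untreated library was at 1963 for ID1, 1160.2 for ID3 and 170.2 for SMAD6, nearer to the Ars libraries, but at 83.7 for BMP4, near the glutamine-recovered libraries. ID1 in starved cells was at 117 ± 7.52, with no difference detected from glutamine-recovered cells (-0.03 against starved, adjusted p = 0.871, 95% interval -0.29 to 0.23). CCN2 (CTGF), a member that rose, had 1910.1, 2130.3 and 2142 normalized counts with glutamine, where Ars libraries held 624, 591 and 573 (1.79 ± 0.10, adjusted p = 5.8e-11).

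Actin cytoskeleton and SRF/YAP target genes were higher in 15 of 33 and lower in 3, with a median of 0.42. ANKRD1, a target of YAP, had 234, 152 and 257 normalized counts in Ars libraries and 1582, 1513 and 1820 in glutamine-recovered libraries (2.96 ± 0.16, adjusted p = 4.77e-11). LIMA1, an actin cross-linker, had normalized counts of 145, 106 and 148 in Ars cells, against 613, 583 and 706 with glutamine (2.25 ± 0.15, adjusted p = 1.02e-09). SRF itself had 820.3, 943 and 838 normalized counts with glutamine, where Ars libraries held 397, 416 and 350.5 (1.16 ± 0.11, adjusted p = 5.43e-08). TPM1 (tropomyosin), one of 3 members that fell with MYH10 and THBS1, was at 1625 ± 109 in Ars, 875 ± 51.2 in glutamine-recovered and 332 ± 57.3 in starved cells (1.41 against starved, adjusted p = 6.89e-07). TAGLN, an actin-binding protein, was at 2522 ± 56.4 with glutamine against 1299 ± 49.04 in Ars and 1285 ± 108 in starved cells (0.98 against starved, adjusted p = 3.55e-06), so that it rose above both.

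Collagens and matrix genes were lower in 11 of 34 and higher in 5, with a median of -0.14. The balance depended on scaling, with 8 lower and 8 higher with equal totals and 10 lower and 8 higher after the GC trend was removed. COL1A1, the main collagen of bone, had 9757, 11093 and 10987 normalized counts in Ars libraries and 4695, 4734 and 4800.2 in glutamine-recovered libraries (-1.16 ± 0.12, adjusted p = 1.69e-07). The untreated library held 4353, near the glutamine-recovered libraries. MMP3, a matrix protease, had normalized counts of 8.10, 6.52 and 11.7 in Ars cells, against 43.3, 33.7 and 43.2 with glutamine (2.09 ± 0.24, adjusted p = 8.85e-07), and starved cells were at 106 ± 16.6 (-1.38 against starved, adjusted p = 0.00041). With an Ars mean under 10, MMP3 could only be called higher than Ars. TIMP1, an inhibitor of such proteases, was at 3265 ± 99.02 in Ars, 4721 ± 142 in glutamine-recovered and 12008 ± 600.2 in starved cells (-1.35 against starved, adjusted p = 2.19e-07). Of 7 caveolae genes, CAV1 and EHD2 were lower and 0 were higher. CAV1, the coat protein, had 126, 105 and 108 normalized counts with glutamine, where Ars libraries held 374, 318 and 375 (-1.65 ± 0.14, adjusted p = 2.33e-08). CAVIN1, which shapes caveolae, had 3739, 3965 and 3588 normalized counts in Ars libraries and 2440.4, 2649 and 2453 in glutamine-recovered libraries and was not called at 1.5-fold (-0.58 ± 0.11, adjusted p = 0.000173). Its starved libraries were at 7195 ± 581, above both groups (-1.51 against starved, adjusted p = 7.83e-08). CAVIN1 passed 1.5-fold without Ars replicate 1 (-0.59), Ars replicate 3 (-0.62) or EBSS+VBL+Gln+Ars replicate 2 (-0.62), and with DESeq2 (-0.59).

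Apoptosis regulators changed in both directions, with 13 of 29 higher and 6 lower and a median of 0.55. BCL2A1, a survival protein and NF-kB target, had normalized counts of 0.675, 1.86 and 0.838 in Ars cells, against 56.3, 28.3 and 47.97 with glutamine (4.40 ± 0.35, adjusted p = 8e-09). The Ars values stood for 1 to 2 reads a library, and the ratio of summed reads was 42.0 (exact 95% interval 16.1 to 156). BIRC3, an inhibitor of apoptosis, had 59.5, 81.6 and 87.03 normalized counts with glutamine, where Ars libraries held 5.40, 3.73 and 3.35 (3.90 ± 0.26, adjusted p = 6.14e-10). PMAIP1 (NOXA), a killer BH3 protein, had 142, 129 and 147 normalized counts in Ars libraries and 395, 506 and 431 in glutamine-recovered libraries (1.66 ± 0.12, adjusted p = 2.06e-09). BMF, another BH3 protein, had normalized counts of 78.99, 89.4 and 67.9 in Ars cells, against 3.25, 1.09 and 2.74 with glutamine (-4.63 ± 0.37, adjusted p = 8.3e-09), below starved cells at 7.33 ± 3.38 (-1.30 against starved, adjusted p = 0.0138, and -1.04 after the GC trend was removed, adjusted p = 0.0572). BCL2A1 and BIRC3 had Ars means under 10 and could only be called higher. BMF had a mean under 10 with glutamine and could only be called lower than Ars. Of 24 p53 targets 9 were higher and 3 lower (PLK2, TP53I3 and DDB2), with a median of 0.10. The count lower was 2 with equal totals, where DDB2 was not called (-0.56), and 5 after the GC trend was removed. GDF15, a stress cytokine, had 211, 262 and 209 normalized counts with glutamine, where Ars libraries held 64.8, 70.8 and 61.2 (1.77 ± 0.14, adjusted p = 4.36e-09), while starved cells were at 539.7 ± 66.6 (-1.24 against starved, adjusted p = 5.91e-06). TNFRSF10B (DR5), a death receptor, rose by 1.51 and GADD45A by 1.89.

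Metallothionein and metal response genes had 1 of 6 lower (16.7%, near the 15.8% of all genes) and 0 higher. MT1X had 4649, 5842 and 5947 normalized counts in Ars libraries and 5071, 5706 and 4314 in glutamine-recovered libraries, and these groups overlapped (-0.12 ± 0.15, adjusted p = 0.529, 95% interval -0.44 to 0.19), with 111 in the untreated library. MT1G, the member that fell, had normalized counts of 64.1, 67.1 and 65.4 in Ars cells, against 32.5, 11.97 and 16.4 with glutamine (-1.76 ± 0.39, adjusted p = 0.00115). The core of the metal response element, TGCGCNC, was present in the promoters of 3 of 7 matched list genes (42.9%), against 5453 of 27305 (19.97%). Cytosolic heat shock genes had 3 of 20 lower (CRYAB, HSPB1 and HSPE1) and 0 higher, with a median of -0.12. The share lower was 15%, near the 15.8% of all genes, and this list also counts the mitochondrial chaperone HSPE1. CRYAB, a small heat shock protein, had 406, 581 and 508 normalized counts with glutamine, where Ars libraries held 1080.2, 1344 and 1161 (-1.27 ± 0.14, adjusted p = 3.58e-07). HSPB1 had 5588, 6355 and 5681 normalized counts in Ars libraries and 2925, 3421 and 2573 in glutamine-recovered libraries (-0.99 ± 0.13, adjusted p = 6.96e-06). Without Ars replicate 2 the count higher was 1 (HSPB8, 0.53 with all libraries and 0.68 without it), as it was with equal totals (0.64). HMOX1, heme oxygenase, was at 2018 ± 403 in Ars and 1665 ± 315 in glutamine-recovered cells, against 219 in the untreated library, and was not called.

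Of 24 NRF2 targets and regulators, 6 were higher and 8 lower. NQO1, a quinone reductase, had normalized counts of 603, 492 and 563 in Ars cells, against 123, 105 and 117 with glutamine (-2.25 ± 0.13, adjusted p = 8.39e-11). SLC7A11, the cystine importer that ATF4 also drives, had 169.9, 176 and 235 normalized counts with glutamine, where Ars libraries held 81.7, 81.98 and 81.3 (1.22 ± 0.14, adjusted p = 1.09e-06). MAFF, a small partner of NRF2, had 144, 172 and 163 normalized counts in Ars libraries and 945, 1036 and 991 in glutamine-recovered libraries (2.63 ± 0.10, adjusted p = 6.89e-13). NFE2L2 (NRF2) mRNA itself rose by 1.09. Unfolded protein response genes had 4 of 23 higher (17.4%, near the 16.1% of all genes) and 6 lower (26.1%, all genes: 15.8%). HERPUD1 and XBP1, of ER stress signalling, rose by 2.13 and 1.36. The chaperones CALR and CRELD2 fell by 0.81 and 1.08. Of 9 interferon-stimulated genes 4 were lower (OASL, ISG15, IFI6 and OAS3) and 0 higher. ISG15, a ubiquitin-like protein, had normalized counts of 83.04, 74.5 and 67.9 in Ars cells, against 29.2, 37.01 and 17.1 with glutamine (-1.46 ± 0.28, adjusted p = 0.00034). OAS3 (-0.62 ± 0.22, adjusted p = 0.0287) lost its call without Ars replicate 2 (-0.58), Ars replicate 3 (-0.62), EBSS+VBL+Gln+Ars replicate 2 (-0.60) or EBSS+VBL+Gln+Ars replicate 3 (-0.54), and the count fell to 2 without Ars replicate 3 or either of those glutamine-recovered libraries, since IFI6 was not called there either (-0.73, -0.46 and -0.59). With equal totals the count was also 2, with OAS3 at -0.52 and IFI6 at -0.60 not called.

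Genes of stress granule proteins held few called members. Of 26 tested, 3 were higher (PUM2, USP10 and IGF2BP2) and 1 lower (IGF2BP1), with a median of 0.03. The shares were 11.5% higher and 3.85% lower, below the 16.1% and 15.8% of all genes. After the GC trend was removed the balance turned to 2 higher and 4 lower, since PUM2 was not called (0.52) and CAPRIN1 (-0.70) and TIA1 (-0.59) were among those lower. G3BP1, the core SG scaffold, had 699, 695 and 684 normalized counts with glutamine, where Ars libraries held 587, 505 and 591 and was not called at 1.5-fold (0.31 ± 0.11, adjusted p = 0.0343). G3BP2 had 215, 171 and 224 normalized counts in Ars libraries and 207, 234 and 236 in glutamine-recovered libraries, with overlapping groups (0.16 ± 0.14, adjusted p = 0.394). USP10, a G3BP partner, had normalized counts of 344, 376 and 286 in Ars cells, against 481, 559.5 and 555 with glutamine (0.67 ± 0.12, adjusted p = 0.00017) and was not called without Ars replicate 3 (0.56). IGF2BP2 had 540, 471 and 507 normalized counts with glutamine, where Ars libraries held 337, 281 and 365 (0.63 ± 0.12, adjusted p = 0.000294) and was not called without Ars replicate 2 (0.53) or EBSS+VBL+Gln+Ars replicate 1 (0.58). IGF2BP1 had 19.6, 19.6 and 16.8 normalized counts in Ars libraries and 4.33, 4.35 and 5.48 in glutamine-recovered libraries (-1.78 ± 0.41, adjusted p = 0.00145). IGF2BP1 passed the minimum mean of 10 only through the Ars libraries and could only be called lower. Without Ars replicate 2, EBSS+VBL+Gln+Ars replicate 1 or EBSS+VBL+Gln+Ars replicate 3, 2 members were lower, with CAPRIN1 (-0.61, -0.63 and -0.59) as the second. TIA1, an SG nucleator, was at 91.5 ± 13.5 in Ars, 70.98 ± 2.77 in glutamine-recovered and 29.4 ± 1.26 in starved cells (1.25 against starved, adjusted p = 6.48e-05), and CAPRIN1, which binds G3BP1, at 1006 ± 52.4, 678 ± 65.99 and 459 ± 145 (0.60 against starved, adjusted p = 0.00798, and 0.43 after the GC trend was removed, short of 1.5-fold). Of 24 P-body protein genes, LSM2 was lower (-0.88 ± 0.11, adjusted p = 3.61e-06) and XRN1, the 5′-to-3′ exonuclease, was higher (1.23 ± 0.23, adjusted p = 0.000195). Those P-body calls were 4.17% each way, also below the shares of all genes. AGO2, just below 1.5-fold at 0.58, was called without any one of Ars replicates 1 and 2 and EBSS+VBL+Gln+Ars replicates 1 and 2, at 0.59 to 0.62, which made 2 higher. Without Ars replicate 2 there were also 2 lower, and 2 were higher and 2 lower after the GC trend was removed.

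Of the 191 genes chosen by rule, 76 share exon bases with a gene on the opposite strand, among them MAP1LC3B (with FBXO31), SKP2 (with NADK2), SQSTM1 (with MGAT4B), MYC (with CASC11) and CCL3 (with CCL3-AS1). The sources used here did not state whether counting used strand, so reads of such pairs cannot be told apart.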

How the data were processed

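RNA-seq was made from U2OS cells in 10 libraries, of which 6 entered the comparison. The deposited values are a signal per gene: the authors made rRNA-depleted single-read libraries and divided counts by DESeq2 size factors, in 60671 genes, those at 0 included. The submitters' processing notes name STAR, HTSeq and DESeq2 and the build hg38, and versions and the strand setting are not given in the sources used here. Gene names came from GENCODE release 44, for 60401 of the IDs. All values were whole multiples of 1 read's worth (100% within 0.01), so reads were recovered for the count tests and the depth in the report. Counting error is larger in the shallower libraries.

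Genes with a mean of at least 10 over the 6 libraries were tested with limma 3.58.1 (R 4.3.3, trend and Benjamini-Hochberg adjustment) on log2(value + 1), a scale that understates changes of low genes. A gene with a mean under 10 in 1 group could pass only through the other group, and then only be called higher there. All 9 replicated libraries shared 1 estimate of the spread. Calls needed an adjusted p under 0.05 and 1.5-fold. edgeR 4.0.16 (quasi-likelihood, TMM) and DESeq2 1.42.0 on recovered reads were alternatives, with other pseudocounts, filters, scalings, a GC correction (lowess span 0.3), a replicate block, and each library left out. The model was tested on simulated data. Same-numbered libraries of the 2 groups correlated at 0.00816, 0.215 and 0.0305 in their deviations. Same-numbered Ars and starved libraries correlated at 0.308, 0.215 and -0.036, and differently numbered libraries of any groups at -0.311 to 0.199. Numbers were not taken as pairs, but these values do not exclude a shared replicate effect, for which the replicate block is an alternative.

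Genes were named by rule: the 10 largest rises and falls with a mean of at least 100 and groups that did not overlap, up to 5 members of each of 36 gene lists with the smallest p, MYC, SLC1A5, SLC2A1, G3BP1, G3BP2 and RN7SL1. Further members given for a starved-cell comparison, a short count or a promoter match were chosen after their values were seen. Members and lists were chosen with earlier results of these data known. Promoters came from RefSeq. Values of some list members are not reported here.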

Additional observations from a re-analysis of the deposited data

How the results depend on the processing

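Of 250 named genes, 200 were called. Of these, 182 kept call and direction under those of 23 alternatives in which they were tested, 18 lost the call under some and 0 reversed. A named gene with a mean under 50 was not tested at a minimum mean of 50. Changes of the minimum fold were not among the 23. Among genes not called, 10 were called under some alternative. DESeq2 on recovered reads shared 3947 of its 4015 calls with those reported, and edgeR 4099 of 4357. Called genes numbered 4248 with the replicate block, and 2132 of them were higher. Differing genes numbered 2742 at a mean of at least 50 (1264 lower) and 2034 at 2-fold (927 higher, 1107 lower). Against starved cells they numbered 570 at 2-fold and 3730 with no minimum fold. Leaving out 1 library gave 3838 to 4261 genes, 1935 to 2128 higher and 1873 to 2133 lower, and 1695 to 3012 against starved cells. Directions reversed for 7 genes that were not called. With quantile normalization MT1X was at 0.0486 and FOS at 0.0404. With equal totals SLC2A1 was at 0.03, QARS1 at 0.0072 and FOS at 0.10 (0.0553 without RN7SL1). With the GC trend removed, MT-ND3 was at -0.0178, G3BP2 at -0.0889 and FOS at 0.075, and the replicate block with it gave the same values of -0.0178, -0.0889 and 0.075. Leaving out 1 library gave -0.1036 to 0.1399 for FOS, above 0 without Ars replicate 2 or EBSS+VBL+Gln+Ars replicate 1 or 3, and -0.0395 (without Ars replicate 3) to 0.1641 for ATF5. The cause of these changes was not tested. Of 72 counts of list members, 49 stayed within 1.5 times under every alternative but the fold. The lowest library held 4452208 recovered reads among the 6 compared, which limits genes near the minimum of 10.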

Other observations

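Some lineage markers outside the lists above also differed between glutamine-recovered and Ars cells. ALPL, the alkaline phosphatase of the osteoblast lineage, had normalized counts of 54.01, 62.4 and 62.05 in Ars cells, against 280.3, 272 and 326 with glutamine (2.28 ± 0.13, adjusted p = 8.92e-11), with 121 in the untreated library. RUNX2, the master regulator of that lineage, was at 178 ± 3.18 against 142 ± 22.8 in Ars cells and was not called, but it was higher than in starved cells (0.63 against starved, adjusted p = 0.00231, and 0.50 after the GC trend was removed, short of 1.5-fold). KRT8, an intermediate filament keratin, had 922, 819.7 and 835 normalized counts with glutamine, where Ars libraries held 2422, 2265 and 2315 (-1.44 ± 0.10, adjusted p = 8.82e-10). Its partner KRT18 was at 3583 ± 141 in Ars, 4359.9 ± 254 in glutamine-recovered and 6606 ± 279 in starved cells (-0.60 against starved, adjusted p = 0.000386, and -0.31 with equal totals, short of 1.5-fold), so the pair did not move together. KRT8 and KRT18 share exon bases on opposite strands in the annotation, and reads there cannot be told apart. S100A4, a calcium-binding protein of mesenchymal cells, had 92.5, 65.2 and 82.2 normalized counts in Ars libraries and 25.97, 22.9 and 19.2 in glutamine-recovered libraries (-1.77 ± 0.24, adjusted p = 6.14e-06). Of the other mesenchymal markers, CDH2 went the other way but was not called (0.44 ± 0.14, adjusted p = 0.0163). VIM was not called either (-0.43 ± 0.12, adjusted p = 0.00896), and TWIST1 was at 0. SPARC, of the osteoblast lineage, was lower by less than 1.5-fold (-0.51 ± 0.11). CLDN4, an epithelial marker, had a mean of 108.6 in Ars and 13.2 in glutamine-recovered cells.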
